A study of Mus musculus with 6 samples.

Results

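Among neutrophils sorted from the blood of mice with brain tumors, a small number of cells carried messenger RNA of Ngp, Camp and Ltf, genes of the specific granules that neutrophils fill while they mature in bone marrow. These cells were chosen by a count: a blood barcode was kept when it had at least 200 genes, at most 10% of its unique molecular identifiers (UMIs, 1 for each RNA molecule captured) from mitochondrial genes and at least 0.5% from S100a8 and S100a9, and it was a member when Ngp, Camp and Ltf together gave 5 UMIs or more. By this rule 135 of 8261 kept blood cells were members, 72 in library 1 and 63 in library 2, out of 37490 barcodes in the whole series. Of the other kept blood cells, 7247 had no UMI of the 3 genes and 879 had 1 to 4. All animals had been injected with 10000 SB28 cells, a mouse glioma line, and were sampled at a late stage on day 18; tumor-free animals were not analysed here. Blood was taken by submandibular and then cardiac puncture, and cells were sorted as CD45+ CD11b+ LY6Ghigh LY6Clo/-, so a cell needed high surface LY6G to enter. The same sort gate was applied to the tumors (2 libraries), and a further 2 libraries held all CD45+ cells of tumors. The labels do not say that the libraries came from separate mice, or how many mice gave each, so the spread between them may be technical.

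Neutrophils make their granules in a fixed order. Promyelocytes fill azurophil granules with serine proteases and myeloperoxidase, myelocytes and metamyelocytes fill specific granules with lactoferrin and cathelicidin, and band cells fill gelatinase granules with matrix metalloproteases. The transcription factor C/EBPε drives the specific granule program, and cells in which it is high are dividing or have just stopped. Mature neutrophils have shut these genes down and carry receptors for chemokines and growth factors, and they normally form the bulk of circulating neutrophils. Cells rich in RNA of specific granule genes can be called immature from marker genes alone. Such RNA does not show that a gene is still being transcribed. Members with only a few UMIs of Ngp, Camp and Ltf are not called immature here, and their maturity was not tested.

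The 3 genes that chose the cells lie on 1 chromosome. In the mm10 build, with GENCODE gene models, Camp (cathelicidin, an antimicrobial peptide) lies at chr9:109847379-109849617, Ngp (neutrophilic granule protein) at chr9:110419747-110423012 and Ltf (lactoferrin, which binds iron) at chr9:111019271-111042767, within 1195 kb. Because these genes chose the cells and other granule genes were higher in members, the sequence just before the start site is shown for 5 such genes. It is from the RefSeq promoter table (build GRCm38.p6), 5′ to 3′ on the strand of the gene. Ngp and Ltf chose the cells, while Itgb2l, Cd177 and Chil3 are genes of the same granule program that the choice did not use. Each stretch stops where an annotated exon begins, and capitals mark TTGCNNAA on either strand, a simple form of the site that C/EBP factors bind.
Ngp, chr9:110419658-110419746: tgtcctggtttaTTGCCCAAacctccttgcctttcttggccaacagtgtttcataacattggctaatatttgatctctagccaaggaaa
Ltf, chr9:111019142-111019270: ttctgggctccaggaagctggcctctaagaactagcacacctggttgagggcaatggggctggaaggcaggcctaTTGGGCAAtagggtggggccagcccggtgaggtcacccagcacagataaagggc
Itgb2l, chr16:96443620-96443764: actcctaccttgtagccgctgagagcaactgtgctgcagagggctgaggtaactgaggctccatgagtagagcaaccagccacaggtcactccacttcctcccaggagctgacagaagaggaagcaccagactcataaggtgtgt
Cd177, chr7:24760312-24760461: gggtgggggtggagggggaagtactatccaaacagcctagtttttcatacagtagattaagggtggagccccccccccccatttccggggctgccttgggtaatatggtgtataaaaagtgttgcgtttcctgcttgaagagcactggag
Chil3, chr3:106167565-106167714: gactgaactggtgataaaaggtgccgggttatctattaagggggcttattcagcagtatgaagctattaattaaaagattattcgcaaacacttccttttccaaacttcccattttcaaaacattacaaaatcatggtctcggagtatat

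In the 150 bases before the start site, the motif was found 138 and 11 bases upstream in Ngp and 75 bases upstream in Ltf. The Ngp match at 11 bases lies in an annotated exon and so outside the stretch printed. Of 11 genes looked up, 9 were in the table, and 2 of those 9 held the motif. Over all 32851 promoters of the table, 1794 (5.46%) held it in a window of the same length. Of the 17 specific granule genes of the list used below that had an entry, 1 held it, Anxa1. These matches describe letters in a short window and say nothing of what binds there.

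The members were far from uniform in what chose them. In library 1 the 3 genes summed to a median of 10 UMIs per member and a highest value of 2304, and in library 2 to a median of 7 and a highest value of 2871. Near the lower limit, 23 and 19 cells had 4 UMIs and stayed outside, while 12 and 16 cells had exactly 5 and were inside. Members with 5 to 9 UMIs numbered 34 and 38, those with 10 to 49 numbered 21 and 15, and those with 50 or more numbered 17 and 10. Low counts were almost entirely Ngp: 53 of 72 and 46 of 63 members had no UMI of Camp or Ltf. All 3 genes were present in 15 and 10 members, 14 and 8 of which had 50 UMIs or more. The 10 cells with the most gate UMIs in each library held 84.3% and 89.5% of all gate UMIs among kept cells. A few cells rich in all 3 genes stood beside many with a trace of Ngp.

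**Figure D1:**
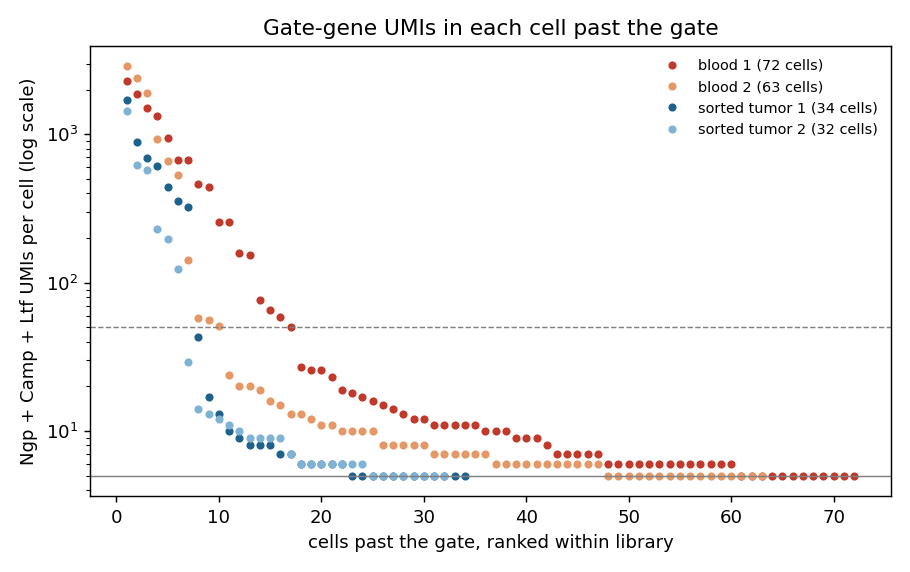
Sum of Ngp, Camp and Ltf UMIs in each cell past the gate (log axis) against its rank within the library, for both blood and both sorted tumor libraries, with lines at 5 and 50 UMIs. In each library a short steep limb above 50 UMIs, 17 and 10 cells in blood, gives way to a long tail near 5.

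Members made up 2.38% of kept cells in blood library 1 (95% Clopper-Pearson interval 1.86 to 2.98) and 1.20% in library 2 (0.927 to 1.54), so the libraries differed by more than counting error, which is all that these intervals cover. Members were also deeper than other cells, with medians of 6478.5 and 6141 UMIs against 4183 and 3914.5 in gate-zero cells. A deeper cell passes a count more easily. After every cell was thinned to 2000 UMIs, the shares were 1.04% and 0.368%, with 240 and 882 shallower cells left out. Barcodes that were not kept carried 20.9 and 3.38 gate UMIs per 1000000, and kept cells 932 and 517. Of 3121 and 5330 barcodes, 3029 and 5232 were kept, and 90 and 84 fell below the minimum of S100a8 and S100a9. The barcodes not kept were thus mostly chosen for little neutrophil RNA, and their values cannot measure free RNA. All 10 neutrophil markers, which include S100a8 and S100a9, were detected in members of both libraries. No member shared its barcode with a member of another library. The rule asked for 0.5% of S100a8 and S100a9, the calprotectin genes, and members carried a median of 23.0% and 22.6% against 11.8% and 11.3% in gate-zero cells. Since these genes and the 3 gate genes chose the cells, no test of them is reported; the gate genes were taken out of the table that was fitted, and S100a8 and S100a9 stayed in it.

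Each member was set beside a gate-zero cell of the same library and like depth, which gave 72 and 63 cells a class with median depths of 6478.5 and 6141 UMIs for members and 6462 and 6143 for the matched cells. UMIs were summed by library and class without the gate genes, and levels are UMIs per 1000000 after TMM scaling, called CPM here. Of 4994 genes tested with edgeR's quasi-likelihood test, with the library as a block and an adjusted p under 0.05, 164 were higher in members (3.28%) and 114 lower (2.28%). Only 1 residual degree of freedom stood behind this test, so most of its spread estimate was borrowed across genes. Without library 1 the counts were 47 higher and 72 lower, and without library 2 they were 49 and 50. Scaling by library totals in place of TMM gave 74 higher and 194 lower, and moved the median change of all genes from -0.01 to -0.32. Changes below are relative to that median under TMM.

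Cells of other types and very deep cells weighed on these sums. The matched gate-zero cells held 2 and 5 cells in which markers of other cell types (30 genes) made up at least 0.1% of UMIs, against 1 and 0 members. Summed B or plasma cell markers were at 725 and 1434 per 1000000 in gate-zero cells and at 22.9 and 35.1 in members. A second set of cells, members with over 20000 UMIs, numbered 2 in library 1 and 4 in library 2. The comparison was therefore repeated without both kinds of cell, a setting chosen after the data were seen, and it is called the trimmed comparison below. It called 162 of 4301 genes higher (3.77%) and 140 lower (3.26%). It shared 110 of the 164 higher calls and 30 of the 114 lower ones. Of the same calls, 150 and 46 could be tested in it, and all of those kept their sign.

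Specific granule genes other than those of the gate stood highest. The name is that of the list and does not say that each product lies in that granule. The list was chosen with earlier results of these data known, so its direction is a description. Of 22 listed genes, all tested, 14 rose and none fell, and their median log2 change was 1.96 against -0.01 over all genes tested. In the trimmed comparison 14 of 21 rose with a median of 1.43, without library 1 it was 11 of 22, and without library 2 it was 14 of 22. Over the 30 settings run in blood, this one included, between 10 and 20 of these genes rose and none fell. In each gene called in blood whose 4 blood levels are given below, both member levels lay on the same side of both matched levels. With 2 levels a class and genes already called by the test, this adds no support of its own. The share of all tested genes with such separation is not given.

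Lcn2, which encodes the siderophore-binding protein lipocalin 2, was at 11020 and 10710 CPM in members of libraries 1 and 2 and at 2322 and 2943 in matched cells. Members were higher in both libraries. The log2 change was 2.06 ± 0.21 (SE), with an adjusted p of 0.000209 in edgeR's test. Because nearly every matched cell also had Lcn2 UMIs (66 of 72 in library 1), the difference was one of amount. Cd177, a surface glycoprotein of neutrophils, was at 576 and 472 CPM against 50.2 and 68.9, a log2 change of 3.14 ± 0.27 (adjusted p 0.000105 by edgeR). Here the cells differed in number too, with 43 of 72 members of library 1 carrying a UMI and 20 of 72 matched cells.

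Itgb2l, an integrin beta subunit of neutrophils, was nearly restricted to members in these sets, at 161 and 158 CPM against 5.20 and 0. That is 145 UMIs against 3, or 57.7-fold (counting interval 19.4 to 283). Serpinb1a, an inhibitor of neutrophil serine proteases, was at 485 and 305 CPM against 8.66 and 5.91, a log2 change of 5.71 ± 0.32 (adjusted p 8.06e-06 by edgeR). In library 1 a single cell held 48.9% of its member UMIs, yet the trimmed change was 5.42 ± 0.42. Orm1, the acute-phase protein orosomucoid, had 47 and 28 UMIs in members and none in matched cells, so members were at least 29.9-fold higher, with 3 UMIs over the group as the floor. That count of 0 holds for this draw of matched cells, and the trimmed log2 change was 3.87 ± 0.94. Its call was lost with DESeq2 (adjusted p 1.00) and without library 1 (0.0569 by edgeR). Olfm4 (olfactomedin 4) rested on very few cells, with 4 members in library 1 and 5 in library 2, and could not be tested in the trimmed comparison.

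The remaining called genes of this list, named here after their values were seen, were Adpgk (4.13), Abca13 (2.96), Ifitm6 (2.78), Cybb (2.29), Chil3 (2.17), Wfdc21 (1.87), Anxa1 (1.84) and Pglyrp1 (1.17), each value a log2 change. Chil3, a chitinase-like protein, was at 3961 and 4148 CPM in members and 709 and 1140 in matched cells. Pglyrp1, a peptidoglycan recognition protein of granules, was at 2462 and 2337 CPM against 1119 and 1020. Cybb, the catalytic subunit of the NADPH oxidase, was at 722 and 550 CPM against 91.8 and 175, and its trimmed change was larger, 3.55 ± 0.25. The 8 listed genes that did not pass the test ranged from 0.33 (Tcn2) upward, and Lyz2, which encodes lysozyme, had the highest log2 difference among them, 1.25 ± 0.34 (adjusted p 0.063 by edgeR; 0.000192 in the trimmed comparison).

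**Figure D2:**
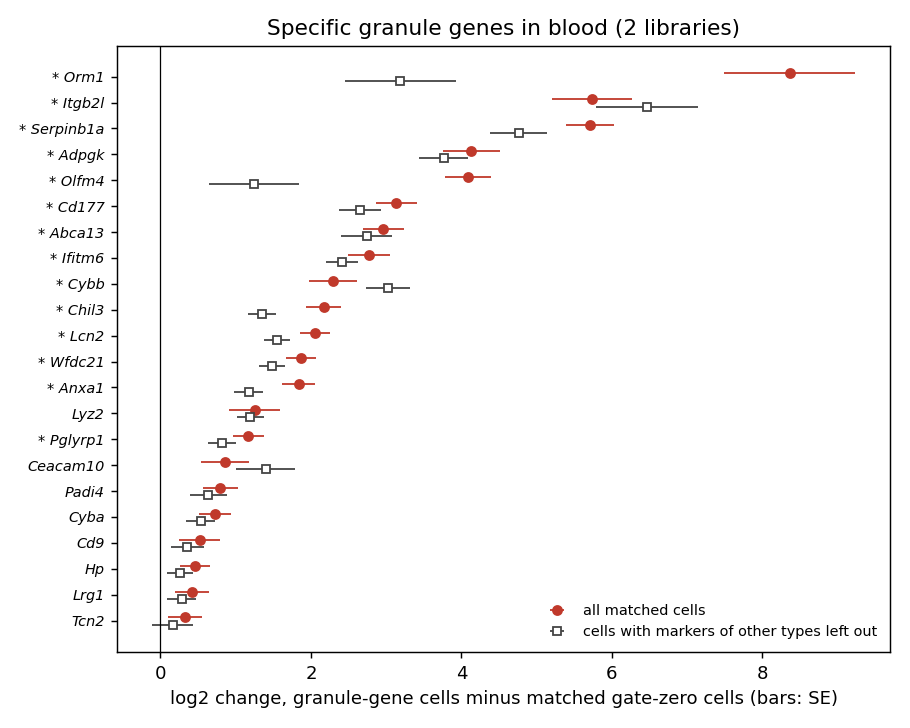
Log2 change (x axis, bars SE) of the 22 specific granule genes between members and matched gate-zero cells in 2 blood libraries, for all matched cells (red circles; an asterisk marks an adjusted p under 0.05) and without cells carrying markers of other types (open squares). All 22 circles lie right of 0, between 0.33 for Tcn2 and 8.37 for Orm1, whose matched cells had no UMI.

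Gelatinase granule and late genes changed less as a group. Of 14 tested, 4 rose and none fell, with a median log2 change of 0.32. Mmp8, the neutrophil collagenase, was at 2434 and 4008 CPM in members and at 646 and 1375 in matched cells, a log2 change of 1.73 ± 0.21 (adjusted p 0.000905 by edgeR). Retnlg, the resistin-like gamma gene and one of the most abundant transcripts of blood neutrophils, was at 29750 and 34170 CPM against 11000 and 14910, a change of 1.32 ± 0.19 (adjusted p 0.00224 by edgeR). Mmp25, a membrane-bound metalloprotease, was at 171 and 89.7 CPM against 58.9 and 49.2, and rose by 1.24 ± 0.28. For Mmp9, the gelatinase itself, the levels were 1680 and 1166 CPM against 910 and 869, which did not pass the test (0.66 ± 0.22, adjusted p 0.131 by edgeR). Fcnb (ficolin B) had 127 UMIs in members against 1, but 75 of the 97 in library 1 came from 1 cell and 23 of the 30 in library 2 from another.

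Genes of the earliest granules were close to absent. Of 13 azurophil granule genes, 4 had enough UMIs to be tested and none was called; Elane, Mpo, Prtn3 and Ctsg were not among them. The exception was a single member of library 1 with 47771 UMIs, which held 178 UMIs of Elane (neutrophil elastase), 123 of Prtn3 (proteinase 3), 19 of Mpo (myeloperoxidase) and 12 of Ctsg (cathepsin G). The same cell had 637 UMIs of Ngp but 10 of Camp and 22 of Ltf, no UMI of Mmp8, and 26.4% of its UMIs from ribosomal protein genes, where the median for members of that library with 50 or more gate UMIs was 2.19%. No other member had a UMI of Elane, Mpo or Ctsg among those with 50 or more gate UMIs in blood. Prtn3 was found in 3 such members of library 1, the cell above included, and in 1 of library 2. Outside that cell it had at most 5 UMIs in any of them.

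Cebpe, which encodes C/EBPε, rose in the summed UMIs of members. It was at 136 and 151 CPM against 10.4 and 11.8, a log2 change of 3.66 ± 0.35 (adjusted p 0.000154 by edgeR), and at 2.36 ± 0.60 in the trimmed comparison. Of its 66 and 64 member UMIs, 61 and 57 lay in members with 50 or more gate UMIs. A single cell held 17 of those in library 1 and another held 34 in library 2. Only 16 of 72 and 12 of 63 members had a UMI of this gene. Of 18 granulopoiesis transcription factors tested it alone was called; in the trimmed comparison Irf1 (-0.87) and Junb (-0.54) fell as well, 2 genes named after their values were seen. Of 7 tested cell cycle genes, 2 rose. Hmgn2, a nucleosome-binding protein, was at 656 and 812 CPM against 161 and 150 (2.23 ± 0.24, adjusted p 0.000385 by edgeR), and in the trimmed comparison at 0.80 ± 0.18. H2afz, a histone variant, rose by 1.36 ± 0.23 but was at 0.50 ± 0.21 (adjusted p 0.201 by edgeR) in the trimmed comparison. Mki67, a marker of cycling cells, was not tested for lack of UMIs. In the members with 50 or more gate UMIs, 3 cells of library 2 had 6, 18 and 23 UMIs of it and also 2, 26 and 32 of Top2a (topoisomerase II alpha).

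Genes of mature neutrophils moved in both directions. Of 24 tested receptor and signalling genes, 4 rose and 1 fell, and the median was -0.19. Ly6g, the sort antigen, was at 458 and 411 CPM in members and at 64.1 and 59.1 in matched cells, a log2 change of 2.81 ± 0.24 (adjusted p 9.69e-05 by edgeR). The others that rose, named with their log2 changes, were S1pr4 (2.13), a sphingosine phosphate receptor, Ltb4r1 (1.67), the leukotriene B4 receptor, and Fpr2 (1.09), a formyl peptide receptor. S1pr4 was at 1.22 ± 0.58 with an adjusted p of 0.251 by edgeR in the trimmed comparison. Il1b, which encodes interleukin 1 beta, was at 1373 and 1178 CPM in members and at 3507 and 2509 in matched cells, a change of -1.22 ± 0.21 (adjusted p 0.00649 by edgeR). Its call was lost without library 1 (-1.09, adjusted p 0.178 by edgeR) and held in the trimmed comparison, at -1.41 ± 0.14.

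The chemokine and growth factor receptors that define the mature cell differed less than the granule genes. Csf3r, the receptor for granulocyte colony-stimulating factor, was at 1406 and 1582 CPM against 2698 and 2070 (-0.66 ± 0.22, adjusted p 0.126 by edgeR), and it passed the test in the trimmed comparison at -0.80 ± 0.14 (adjusted p 0.00244). Cxcr2, which binds the chemokines that call neutrophils out of marrow, was at 974 and 1065 CPM against 1326 and 1109, with a log2 difference of -0.25 ± 0.22. Cxcr4, which holds neutrophils in marrow, was at 246 and 309 CPM against 272 and 315 (-0.09 ± 0.22). Neither Cxcr2 nor Cxcr4 passed the test in either comparison, but other settings differed. Among members with 50 or more gate UMIs, Cxcr2 fell (-1.24 ± 0.28, adjusted p 0.000125 by edgeR) and Cxcr4 was at 0.16 ± 0.39. With thinned cells against all gate-zero cells without other types, both were called lower, Cxcr2 at -0.63 ± 0.15 and Cxcr4 at -1.10 ± 0.21. Cd101, a marker of late maturation, was called in the trimmed comparison alone (-0.76 ± 0.17, adjusted p 0.0135 by edgeR).

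Other functional groups held few calls. Of 7 NADPH oxidase genes tested, Cybb and Ncf4 (the p40 subunit) rose, Ncf4 from 180 and 173 to 409 and 314 CPM (1.02 ± 0.22). Ncf4 missed the threshold in the trimmed comparison (adjusted p 0.0949 by edgeR). Of 17 glycolysis genes 3 rose, Hk2 (hexokinase 2, 1.39), Pgk1 (1.16) and Gapdh (0.97); with library totals as the scale none was called. In the trimmed comparison the called genes were Ldha (0.87), Gpi1 (0.63) and Gapdh (0.63). Myl6, a myosin light chain, was the only 1 of 24 actin and motility genes to rise (0.85), and Capg, an actin-capping protein, rose in the trimmed comparison (2.35 ± 0.37). None of 19 endoplasmic reticulum genes, 24 nuclear oxidative phosphorylation genes, 81 cytosolic ribosomal protein genes and 12 mitochondrially encoded genes was called. This changed with the cells left out. In the trimmed comparison 6 of 11 mitochondrially encoded genes rose, with a median of 0.93, and 2 of 77 ribosomal protein genes did. With only the cells holding markers of other cell types left out, 8 of 10 mitochondrially encoded and 32 of 79 ribosomal protein genes rose, against 4.85% of all genes tested. There Rps18 was at 513 CPM against 42.1 in library 1, but at 50.9 against 37.2 in library 2. A single member of library 1, with 47771 UMIs, held 83.0% of that library's member UMIs of Rps18, 90.5% of Rpl3 and 21.3% of Rps9. The trimmed comparison left this cell out. How far it carried the ribosomal calls was not tested.

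Genes linked to activation and survival of mature cells leaned lower. Of 23 tested survival and stress genes, Neat1, a nuclear long non-coding RNA, was the only one called, at 652 and 670 CPM against 1411 and 1091 (-0.91 ± 0.22, adjusted p 0.0409 by edgeR). In the trimmed comparison 6 of 22 fell, among them Socs3 (-0.92), a feedback inhibitor of cytokine signalling. Of 13 interferon-stimulated genes, Oasl2 fell (-1.02 ± 0.23), and 4 of 12 fell in the trimmed comparison. Cd274, the gene of the checkpoint protein PD-L1, had 2 and 6 UMIs in members against 27 and 35 (-2.68 ± 0.50, adjusted p 0.0114 by edgeR), and -1.81 ± 0.78 with an adjusted p of 0.199 in the trimmed comparison. Stfa1, of the stefin A protease inhibitors, rose by 1.42 ± 0.22, but the cluster holds near-identical copies between which reads can be split, its UMIs sat in 9 and 8 members, and its direction reversed in some settings.

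**Figure D3:**
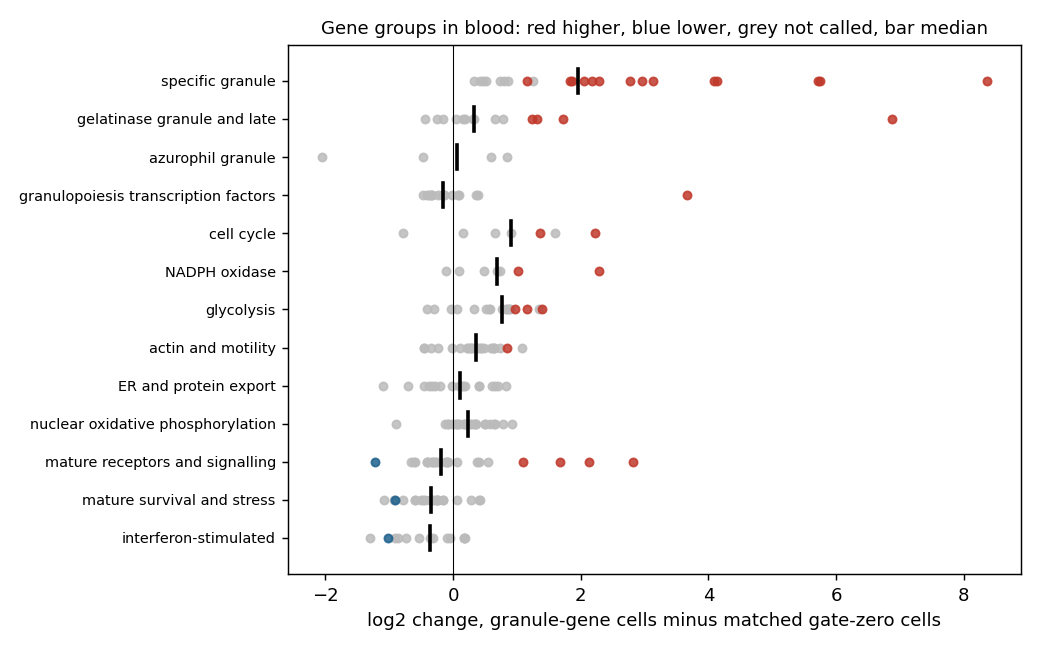
Log2 change of each tested gene (points) in 13 gene groups between members and matched gate-zero cells in blood, red where higher and blue where lower at an adjusted p under 0.05, grey otherwise, with a black bar at the median. The specific granule group, with a median of 1.96, is the only row with every point right of 0, and the survival group has a median of -0.34.

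By size alone, the largest rises after Orm1 were mostly genes of few cells. Cpa6, a carboxypeptidase, had 77 UMIs against 1 (92.0-fold, interval 16 to 3679) and a trimmed log2 change of 3.25 ± 0.64, and F730016J06Rik, a long non-coding RNA, had 59 against 1 (70.5-fold, 12.2 to 2830). Inhba, the activin A subunit gene, was at 41.3 and 66.1 CPM against 3.47 and 0, which is 48 UMIs against 2 (28.7-fold, 7.52 to 244). The non-coding RNA 1700047M11Rik and the gene 4930438A08Rik completed the 12 with those named above. Among genes outside the rule, Mgst2, a microsomal glutathione S-transferase, was at 159 and 130 CPM against 10.4 and 13.8, and at 3.15 ± 0.42 in the trimmed comparison. Ly6c2, which is on the monocyte list and encodes the antigen that the sort kept low, was at 834 and 470 CPM against 88.4 and 74.9 (2.95 ± 0.26). The monocyte genes Ccr2, Ms4a4c and Ace were at 0 in members of both libraries. Levels of the other genes on that list, F13a1, Csf1r, Cx3cr1 and Nr4a1, are not given, so the genes at 0 do not speak for the whole list.

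The largest falls were not neutrophil genes. The 12 named by size were Ebf1, Gm15987, Agbl1, Ly6d, Iglc1, Iglc3, Igkc, Mzb1, Ly86, Crip1, H2-Eb1 and Cd79a, most of them known from B cells or from antigen presentation. Ebf1, a B cell transcription factor, had 281 UMIs in matched cells, from 2 cells of library 1 and 3 of library 2, and none in members, which were at least 78.4-fold lower by the same floor. Igkc, an immunoglobulin light chain, had 356 UMIs against 1. Dendritic cell markers summed to 280 and 427 per 1000000 in matched cells and to 1.76 and 22.7 in members, and macrophage markers to 515 and 710 against 100.5 and 136. Once cells with such markers were left out, none of the 12 had enough UMIs to be tested. That comparison called 215 of 4435 genes higher (4.85%) and 109 lower (2.46%). The largest falls in it were in other genes, among them Trim30d (-2.57 ± 0.30), Atf3 (-2.69 ± 0.53), a stress-induced transcription factor, and Prr5l (-2.50 ± 0.33). All 3 had also been called with every matched cell included: Atf3 was at 12.4 and 11.8 CPM in members and at 113 and 53.2 in matched cells.

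When members were divided by how much of the gate genes they carried, granule and mature genes went opposite ways, here in UMIs per 1000000 without TMM scaling. Lcn2 was at 2502 and 3477 per 1000000 over all gate-zero cells, 5033 and 5991 in members with 5 to 9 gate UMIs, 7598 and 8201 with 10 to 49, and 14350 and 15510 with 50 or more. Il1b was at 4497 and 3602 per 1000000 in gate-zero cells, then 2236 and 1576, 1455 and 1058, and 70.1 and 146 across the same bands. Csf3r went from 3202 and 2872 to 359 and 445. Both libraries had the same order in each of these genes. The bands share the gate genes that define them, and the difference between bands was not tested.

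Some genes were much higher in the top band than in the band below it. The levels by band are sums over all cells of a band, not matched for depth. Cebpe was at 14.1 and 19.8 per 1000000 in gate-zero cells, 14.4 and 21.4 in members with 10 to 49 gate UMIs and 267 and 379 in those with 50 or more. Chil3 was at 890 and 1606 per 1000000 in gate-zero cells and at 6447 and 7041 in the top band, with 1419 and 2138 just below. Chil3 was also called higher in members with 5 to 49 gate UMIs against matched cells (log2 change 0.53 ± 0.14, adjusted p 0.0300 by edgeR). Retnlg and Mmp8 had their highest levels in the middle band instead. Retnlg was at 13130 and 15870 per 1000000 in gate-zero cells, 38940 and 46940 with 10 to 49 gate UMIs and 12250 and 8303 with 50 or more. Mmp8 was at 684 and 1338, then 2773 and 5431, then 1752 and 1382 per 1000000 in the same bands. Against matched cells and after TMM scaling, both genes were called higher in both groups of members. The log2 change of Mmp8 was 1.66 ± 0.21 with 50 or more gate UMIs and 1.35 ± 0.14 with 5 to 49. That of Retnlg was 0.63 ± 0.14 (adjusted p 3.87e-05 by edgeR) and 0.97 ± 0.14. The difference between these groups was not tested. For Retnlg the pooled levels of the top band lay below those of gate-zero cells, unlike this change. Matching kept 14 of 17 and 7 of 10 members of that band, so the 2 measures do not cover the same cells.

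**Figure D4:**
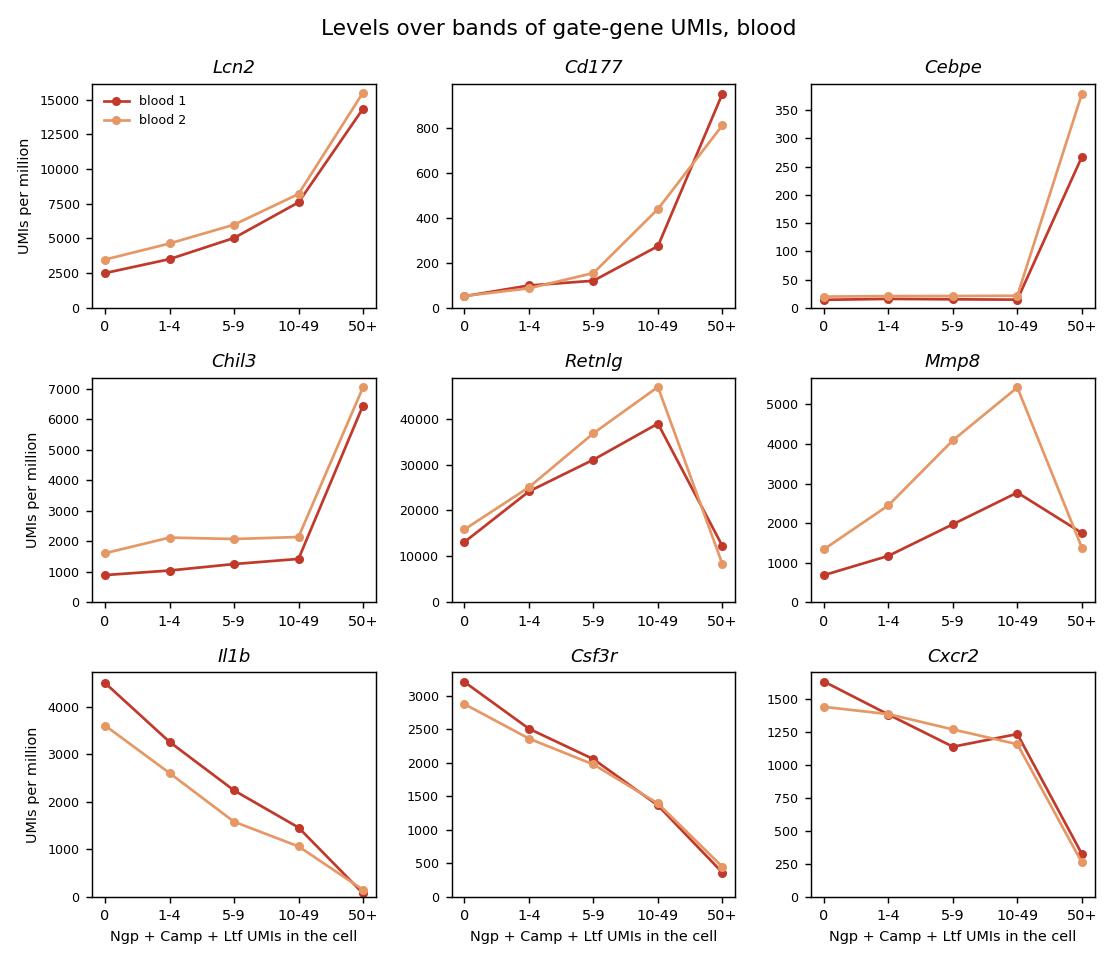
UMIs per 1000000 (y axis, from 0) of 9 genes over bands of the gate sum in a cell (x axis) in blood libraries 1 and 2, each point the pooled cells of 1 library. Lcn2 and Cd177 climb over all bands, Cebpe and Chil3 climb in the top band, Retnlg and Mmp8 peak at 10 to 49 UMIs, and Il1b, Csf3r and Cxcr2 are lowest in the top band.

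Both ends of the range were also compared with matched gate-zero cells separately, after the data were seen. Among members with 5 to 49 gate UMIs, 53 of 3678 genes tested were higher (1.44%) and 39 lower (1.06%), and 10 of 19 specific granule genes rose with a median of 0.53. Among members with 50 or more, 283 of 1946 were higher (14.5%) and 303 lower (15.6%), and 20 of 22 specific granule genes rose with a median of 2.78. Too few gate-zero cells were as deep, so matching kept 14 of 17 and 7 of 10 of these members. Those kept held 8649 and 3414 gate UMIs, against 11816 and 10046 in all members. With cells of other types left out, 13 and 6 were kept. In the top band 54 of 78 ribosomal protein genes fell, but with cells of other types left out, where 12.2% of all genes were higher and 12.5% lower, 0 of 65 did. In that band 7 of 20 mature receptor genes fell with and without those cells, and 12 of 21 survival genes fell (12 of 18 without them).

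Single cells of the top band did not carry the granule genes in equal proportion. In library 1, members with 50 or more gate UMIs had between 0 and 1007 Camp UMIs and between 46 and 1120 of Ngp. The 5 members that had 50 or more gate UMIs but 3 or fewer of Camp carried 340 to 508 Retnlg UMIs in library 1 and 123 and 458 in library 2. By contrast, the cell with 2304 gate UMIs had 9 Retnlg and no Mmp8 UMIs, 12 of Cebpe and 71 of Olfm4, and the cell with 2871 had 6, 0, 34 and 71. Olfm4 was found in 1 of 17 and 3 of 10 members of this band. These are counts in single cells and were not tested.

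The same gate picked out cells in the tumor. In sorted tumor neutrophils, kept by the same filters, 34 and 32 cells passed, 0.976% (interval 0.677 to 1.36) and 0.544% (0.372 to 0.767) of kept cells. Thinned to 2000 UMIs the shares were 0.401% and 0.203%. The gate worked differently there at its low end: 12 and 9 of the tumor cells had Ltf alone, against 0 and 1 in blood. The cells with 50 or more gate UMIs numbered 7 and 6. All 7 in library 1 had all 3 genes, while in library 2 only 3 of 6 had any Camp. None of these 13 had a UMI of Elane, Mpo, Ctsg, Olfm4 or Fcnb. Prtn3 had 1 UMI in 1 of them in library 1 and 2 UMIs over 2 of them in library 2. In the CD45+ tumor libraries 5 and 2 kept cells passed, too few for a comparison.

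Specific granule genes rose in the tumor cells as well, but how many calls there were depended on the settings. Of 3094 genes tested, 118 were higher (3.81%) and 128 lower (4.14%). Of 20 specific granule genes, 18 were higher and none lower, with a median log2 change of 2.19 (-0.04 over all genes tested). This test too had 1 residual degree of freedom. The weight of the spread borrowed across genes (prior degrees of freedom) had a median of 23970, against 9.40 in blood. The spread of single genes thus hardly entered the tumor calls and SEs. Cells with markers of other types numbered 7 of 34 and 1 of 32 in matched gate-zero cells, and 2 and 0 in cells past the gate. With cells of other types left out, no gene was called by edgeR (423 had an unadjusted p under 0.05) although the median of these 20 genes was 2.37. Another draw of matched cells gave 22 calls in all, with 9 of the 20 among them, and DESeq2 gave 35 over all genes. Without sorted tumor library 1 there were 91 calls, and without library 2 there were 148. Macrophage and monocyte genes were among the falls: 2 of 6 macrophage and 3 of 6 monocyte markers fell.

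Ifitm6, an interferon-induced transmembrane family member, was at 1782 and 1912 CPM in tumor cells past the gate and 42.8 and 91.3 in matched tumor cells, and at 2093 and 1560 against 217 and 319 in blood. Serpinb1a was at 179 and 220 CPM in tumor against 3.89 and 0, 83 UMIs against 1 (91.4-fold, interval 16 to 3654). Itgb2l had 45 UMIs against 0 in tumor, at least 16.5-fold higher. Ly6g was at 291 and 352 CPM against 19.4 and 28.8 (3.72 ± 0.52). Il1b, lower in members in blood, was at 5237 and 7114 CPM in tumor cells past the gate and at 8877 and 7108 in matched tumor cells (-0.38 ± 0.28, adjusted p 0.489 by edgeR).

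**Figure D5:**
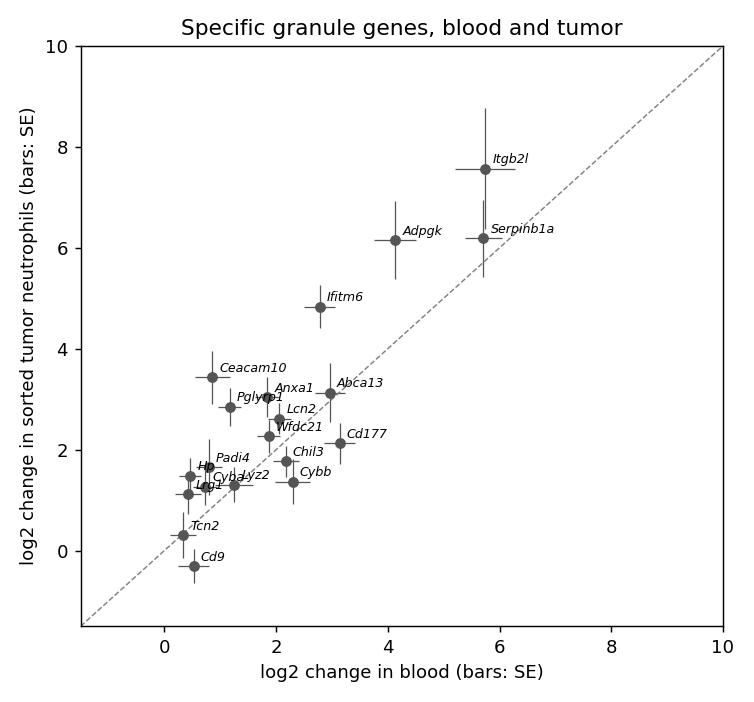
Log2 change between cells past the gate and matched gate-zero cells for the specific granule genes tested in both tissues, blood on the x axis and sorted tumor on the y axis, bars SE, with a dashed line of equality. All but Cd9 (-0.31 in tumor) lie above 0 on both axes, and Ifitm6, Ceacam10 and Pglyrp1 are among those above the line.

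The difference between tissues was tested as an interaction over 5122 genes. It called 1 gene (0.0195%) in edgeR's test, and 406 had an unadjusted p under 0.05. That gene was Inhba, higher in cells past the gate in blood and at 54.1 and 242 CPM against 183 and 778 in tumor, a difference of -6.32 in log2 with an adjusted p of 0.0212. With another draw of matched cells it was -5.09 and no longer passed (adjusted p 0.137 by edgeR). Leaving out 1 library gave 22 and 9 calls without blood libraries 1 and 2, and 10 and 30 without the tumor libraries. No specific granule gene was called, and the widest such differences were Olfm4 (-5.10 ± 0.97, adjusted p 0.156 by edgeR) and Orm1 (-4.48 ± 2.53, 0.713). For Lcn2 the difference was 0.54 ± 0.35, with an adjusted p of 0.742 by edgeR. A miss here does not show that the tissues were alike.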

How the data were processed

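As deposited, the filtered matrices hold raw UMI counts. For these the submitters' processing notes name Cell Ranger 7.1.0 and the mm10 build; the authors started from 10x Genomics 3' libraries with 20000 cells loaded per lane, per the labels. No normalization had been applied. The cells and the gene and marker lists were chosen with earlier results of these data known, so a group's direction is a description.

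Blood libraries held 3121 and 5330 barcodes with 13945799 and 21636838 UMIs, sorted tumor libraries 4158 and 6612 with 21841452 and 32628481. Cells were filtered and gated as the report states; doublets were not removed in the main comparison, since Scrublet (scanpy 1.11.5) marked 2, 2, 0 and 0 cells, and removal of the cells with the highest scores was an alternative. Members and gate-zero cells were matched in number within 20 bins of total UMIs per library (seed 1). In sorted tumor, cells with 1% or more of phagocyte genes (C1qa, C1qb, C1qc, Apoe, Cd74, H2-Aa, H2-Ab1) were left out. Counts were summed per library and class without Ngp, Camp and Ltf and tested in R 4.3.3 with edgeR 4.0.16 (filterByExpr, then TMM, then the quasi-likelihood F test with the library as a block, Benjamini-Hochberg over all genes tested, threshold 0.05); DESeq2 1.42.0 was an alternative. SE is the log2 change over the square root of F. Markers of other types used for exclusion were 30 genes. Intervals are exact Clopper-Pearson at 95% (scipy 1.17.1) and cover counting error only. Thinning used numpy 2.4.6 and plots matplotlib 3.10.9.

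Named were the 12 largest rises and falls among called genes with at least 50 CPM and 10 UMIs in the higher class, the 2 largest each way per gene list, and genes fixed by name, 1 of which is not reported here; others are marked. On simulated data with 200 changed genes, the blood test found 27% of the 2-fold and 82% of the 4-fold changes with 8 false calls (6.84%) over 5042 genes, 8% and 74% in tumor with 6 (6.82%) over 3188, and 1% and 17% for the difference between tissues with 2 (10%) over 5279. The simulation gave every gene the same spread and drew sums, not cells. Sums dominated by single cells or by cells of other types were not simulated, so these rates need not hold in the data. The same library numbers in different groups are not stated to pair mice and were not used as pairs.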

Additional observations from a re-analysis of the deposited data

Results flagged for a closer look

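Inhba was the only gene whose change with the gate differed between sorted tumor and blood in edgeR's interaction test, by -6.32 on the log2 scale. It was higher in cells past the gate in blood and lower in them in tumor, where 1412 of the gate-zero cells of library 2 carried a UMI. The call was absent with another draw of matched cells.

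A signal also appeared in libraries that no comparison uses. In CD45+ tumor library 1, 0.722% of kept cells passed the gate (5 cells, interval 0.235 to 1.68), and in library 2, 0.219% (2 cells, 0.0265 to 0.788). Barcodes of these libraries that were not kept, mostly other leukocytes, carried 2.68 and 1.40 gate UMIs per 1000000.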

How the results depend on the processing

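Of the 164 higher and 114 lower genes in blood, the counts were 34 and 17 with DESeq2, 59 and 38 with all cells below 5 gate UMIs as the reference, 659 and 777 with all gate-zero cells unmatched, and 39 and 18 with each cell thinned to 2000 UMIs. They were 72 and 33 at a gate of 10, 74 and 194 with library totals, 283 and 256 without a filter on low counts, 84 and 45 with the phagocyte rule in blood, and 51 and 31 without Retnla and Prg4 cells. Members with 5 to 49 gate UMIs gave 53 and 39 (48 and 34 without cells of other types), and those with at least 50 gave 283 and 303 (195 lower without such cells). A gate of 3 gave 99 higher and a fit with the tumor libraries 87 higher. Members with 2 or more gate genes gave 197 lower, removal of other cell types with another draw 184 lower, and thinned cells against all gate-zero cells without other types 239 lower. Leaving out 1 library gave 47 to 49 higher and 50 to 72 lower; such fits borrow their spread from the other tissue.

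Without the replicate block, that is, with the library not paired between classes, blood gave 149 higher and 112 lower and sorted tumor 19 calls in place of 246. Other tumor counts were 35 with DESeq2, 133 with RLE size factors, 113 with cells below 5 UMIs as the reference, 776 unmatched, 22 with another draw, 19 at 5% mitochondrial UMIs, 76 thinned, 8 at a gate of 3, 81 with library totals, 123 matched without gate UMIs, 15 without the phagocyte rule, 140 without cells over 20000 UMIs, 0 without other cell types (39 in another draw), and 91 to 148 without 1 library. The difference between tissues, 1 call, gave 4 with DESeq2, 6 at a gate of 3, 34 without a filter, 9 to 30 without 1 library, and 0 with another draw, thinned cells, library totals or other types removed.

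Reversed values were Hk2 at -0.31 and -0.22 and Pgk1 at -0.38 and -0.14 in members with 5 to 49 gate UMIs (without and with removal of other types), and Stfa1 at -1.25 with 2 or more gate genes and -2.92 with at least 50 UMIs and other types removed. In sorted tumor, Crip1 was at 1.89 unmatched, and Stfa1 at -1.64 in thinned cells against all gate-zero cells without other types. The cause of these changes was not tested. Shares in blood 1, blood 2, tumor 1 and tumor 2 were 4.69%, 2.31%, 2.21% and 1.27% at a gate of 3, 1.25%, 0.478%, 0.316% and 0.204% at 10, and 1.04%, 0.368%, 0.401% and 0.203% thinned. With under 30 tumor cells a library, tumor was not fitted at a gate of 10, by gate range or by number of gate genes. At this depth most genes fell under the filter on low counts and could not be compared.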
